A study of Xenopus laevis with 3 samples.

Results

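The 6 genes of endolymph ion and water transport, kcnq1, kcne1, kcnj10, slc12a2, slc4a11 and aqp1, were followed in inner ear RNA of larval X. laevis. Their probe sets were found by the gene symbol in the platform annotation, without the suffix of the gene copy, which gave 6 of the 9240 genes with a single symbol and 8 of the 15495 probe sets with a single symbol. The samples were 3 biological replicates of a single condition, each hybridized to its own Affymetrix array, and the labels name no genotype or treatment. Each replicate was inner ear tissue pooled from larvae of stages 56 to 58, aged 38 to 44 days after fertilization, from 10, 7 and 8 animals for replicates 1, 2 and 3. The animals of replicate 3 had the lowest mean weight, 0.48 ± 0.05 g (SD) against 0.55 ± 0.11 g and 0.59 ± 0.10 g for replicates 1 and 2. Values are GCRMA values, log2 intensities that the authors derived from the probes of each set after correcting for background and adjusting the arrays to each other. A probe set was taken as detected at a mean of 4 or higher, the expression criterion of the study's methods. Where a p is given, it comes from limma's one-sided test of a mean above 4, adjusted over 32475 frog probe sets.

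Endolymph, the fluid that bathes the apical side of hair cells, is rich in potassium, and the current through hair cells is carried by potassium that enters from it. In mammals, potassium is taken up from the basal side of secretory epithelium by the sodium pump and the cotransporter NKCC1, the product of SLC12A2, and leaves into endolymph through a channel of KCNQ1 and its small subunit KCNE1. In the vestibular organs of mammals this epithelium is formed by dark cells. KCNJ10 returns potassium across membranes of supporting, glial and pigment cells, SLC4A11 is a transporter of the fluid-handling fibrocytes of the mammalian ear, and aquaporin-1, the product of AQP1, is a water channel. X. laevis has a doubled genome, so many genes have a copy on a long (.L) and a short (.S) chromosome.

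The arrays were alike, with Pearson's r of 0.994 to 0.996 over the frog probe sets and medians of 7.51 to 7.55. Undetected probe sets gathered at a floor, as the 11444 frog probe sets under 4 had a median of 2.02. The genes of the inner ear list, otos, otoa and gjb2, were detected by 5 of 5 probe sets. The dissected tissue also held detected markers of Schwann cells and myelin (6 of 6 probe sets), cartilage (4 of 4), red cells (8 of 8 by the mean), endothelium (4 of 5) and pigment cells (3 of 6). Of all frog probe sets 64.8% were detected, and 73.2% of those with a single symbol, so these short lists are a description only. The pigment cell share was under both. Of the 6 red cell genes limma's test called 4, and hba1.S and rhag.L reached 4 on replicate 3 alone. None of the 6 hair cell markers listed had a probe set with a single symbol here. In such tissue a lower level can reflect fewer cells of a type or less RNA per cell, which cannot be told apart. Intensities also depend on the probes, so a higher value for a gene does not show that it has more RNA than another gene.

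Each of the 6 genes had at least 1 detected probe set, against 79.9% of the 9240 genes when each is counted by its highest probe set. Of the 8 probe sets, 6 had a mean of 4 or higher, against 64.8% of all frog probe sets and 73.2% of those with a single symbol. The same 6 passed limma's test at an adjusted p under 0.05, against 63.1% of all frog probe sets. The 3 arrays lay on the same side of 4 for each of the 8 probe sets. The undetected probe sets were those of kcnq1.L named Xl2.21509.1.S1_at and of aqp1.S named Xl2.49535.1.S1_at, and in each case another probe set of the gene was detected. The median of the highest means was 10.85 over the 6 genes and 9.60 over the 9240 genes, and these values set nothing apart in so short a list.

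**Figure D1:**
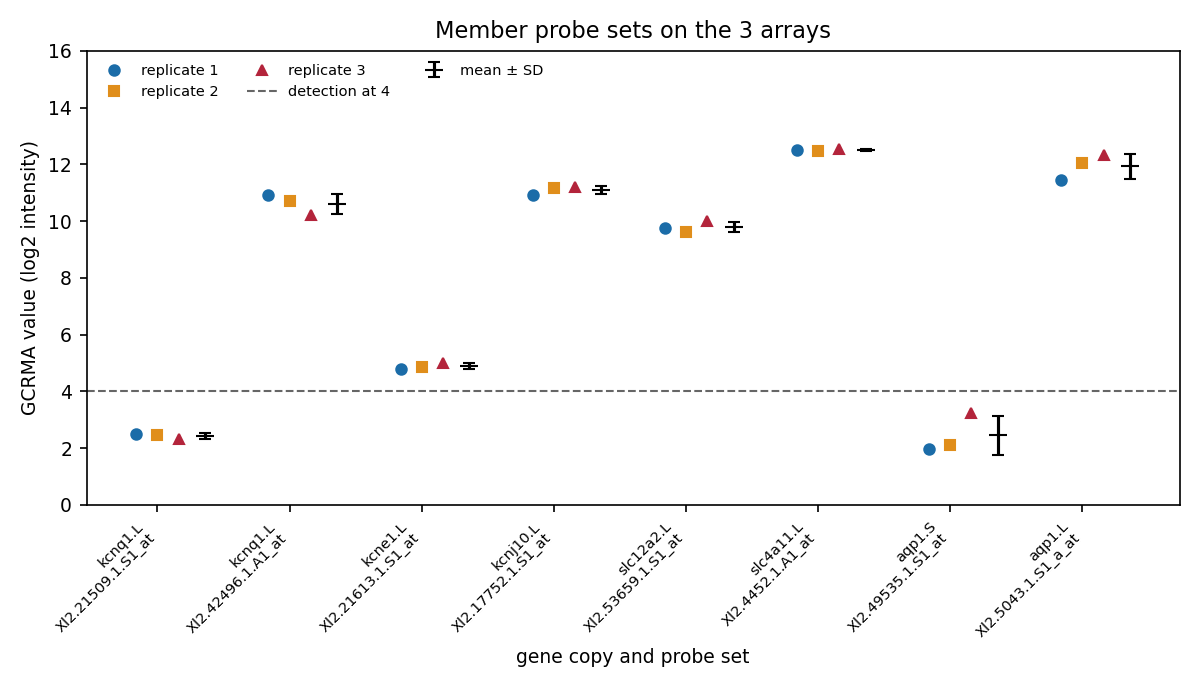
GCRMA value (log2 intensity, vertical axis) of each of the 8 probe sets (horizontal axis, gene copy above probe set name) on replicates 1, 2 and 3, with the mean ± SD (n = 3 arrays) beside them and a dashed line at 4. The 3 points of a probe set lie on the same side of the line throughout; kcne1.L is nearest above it, at 4.79 to 5.01, and the lower kcnq1.L probe set and aqp1.S lie below it.

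The channel that secretes potassium is represented by kcnq1, which encodes the pore-forming subunit, and kcne1, which encodes its accessory subunit. The probe set Xl2.42496.1.A1_at of kcnq1.L (gene ID 373746) had values of 10.91, 10.69 and 10.21 in replicates 1, 2 and 3. Replicate 3 was the lowest and lay 0.59 log2 units below the mean of the other arrays, a shift for which the direction, replicate 3 lower by 0.5 or more, was seen in 5.13% of detected frog probe sets. The mean was 10.60 ± 0.36 (SD, n = 3; limma adjusted p = 4.62e-06). Its SD was higher than that of 93.7% of the 3287 frog probe sets with a mean within 0.5 of it. This probe set thus varied more between the arrays than most of like level. With 1 array for each pool, variation of pools and of arrays cannot be told apart. The other probe set, Xl2.21509.1.S1_at, is annotated with the same copy but gave only 2.48, 2.47 and 2.32. These values stayed close to the floor, at a mean of 2.43 ± 0.090 (SD, n = 3), and replicate 3 was again the lowest. The call for kcnq1 therefore rested on 1 of its 2 probe sets. Among the 2513 genes with exactly 2 probe sets, 21.8% had 1 on each side of 4.

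The kcne1.L probe set Xl2.21613.1.S1_at (gene ID 398417) had 4.79, 4.87 and 5.01. All 3 arrays were just above 4, and their mean of 4.89 ± 0.11 (SD, n = 3) passed the test with a limma adjusted p of 0.0020. It was lost at a threshold of 5, at which 5 of the 6 genes were detected. On simulated data, a true mean of 4.5 was called in 74% of cases and a true mean of 5 in 93%. Of the 20833 simulated calls, 10 had a true mean at or below 4. The spreads behind the 74% and 93% were drawn from probe sets over a range of levels above 4. These shares therefore describe the test and do not show that the kcne1 call is right. The 3 arrays agreed closely for a probe set at this level, since only 16.7% of the 1134 frog probe sets within 0.5 of its mean had a lower SD. Replicate 3 was the highest for kcne1 and the lowest for kcnq1, and the difference in either gene was smaller than 1 log2 unit.

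Potassium enters the secretory cells of mammals through the cotransporter that slc12a2 encodes. Its probe set Xl2.53659.1.S1_at, annotated as slc12a2.L (gene ID 100141486), had 9.74, 9.63 and 9.99, so replicate 3 was the highest by 0.31 over the mean of the others. The mean was 9.79 ± 0.19 (SD, n = 3; limma adjusted p = 1.39e-06), with an SD near the middle of probe sets of like level, above 61.5% of them.

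The potassium channel gene kcnj10 was measured by Xl2.17752.1.S1_at, annotated as kcnj10.L (gene ID 494778). Its values were 10.93, 11.17 and 11.20, with replicate 1 the lowest and the other arrays within 0.03 of each other. The mean was 11.10 ± 0.15 (SD, n = 3; limma adjusted p = 4.10e-07), and the SD was above that of 58.9% of probe sets of like level. Cells other than those of the secretory epithelium carry this channel in mammals, among them glia and pigment cells. The pigment cell genes tyrp1, a melanin enzyme, and pmel, a melanosome matrix protein, were also lowest in replicate 1, with 11.29, 11.68 and 11.68 for tyrp1.L, 11.90, 12.42 and 12.56 for pmel-a, and 11.06, 11.52 and 11.91 for pmel.S. Averaged over the highest probe sets of the 3 pigment cell genes measured, the list had 8.43, 8.73 and 8.78, while mitf, the regulator of that lineage, stayed at the floor with at most 2.10 in the mean of its 3 probe sets. In the Schwann cell and myelin list, 4 of 6 probe sets were lowest in replicate 1, among them sox10.L with 11.12, 11.18 and 11.22, a range of only 0.10. Both mbp.S probe sets were lowest in replicate 2. The share of all frog probe sets lowest in replicate 1 was not counted, so these orders have no background beside them. A probe set of mbp.S, Xl2.25724.1.S1_at, was highest in replicate 3, with 12.40, 12.34 and 12.98. Averaged over the highest probe sets of sox10, pmp22 and mbp, this list had 13.39, 13.48 and 13.45, and the probe sets used for pmp22 and mbp lie near the top of the scale. The part of these cells in the kcnj10 value was not tested.

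The transporter gene slc4a11 gave the steadiest signal of the 6 genes. Its probe set Xl2.4452.1.A1_at, annotated as slc4a11.L (gene ID 100381166), had 12.51, 12.45 and 12.53. The arrays lay within 0.080 of each other, and the mean was 12.50 ± 0.041 (SD, n = 3; limma adjusted p = 1.16e-07). Only 10.9% of the 1926 frog probe sets within 0.5 of this mean had a lower SD.

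The water channel gene aqp1 was the only member with probe sets for both copies. For aqp1.L (gene ID 443817), the probe set Xl2.5043.1.S1_a_at had 11.45, 12.03 and 12.32. Replicate 1 was the lowest, 0.72 below the mean of the others, and replicate 3 the highest, 0.58 above the mean of the others. Shifts of 0.5 or more in these directions were seen in 4.41% and 6.19% of detected frog probe sets. The mean was 11.93 ± 0.44 (SD, n = 3; limma adjusted p = 4.77e-06). The SD was above that of 97.7% of the 2477 frog probe sets with a mean within 0.5. For aqp1.S (gene ID 495037), the probe set Xl2.49535.1.S1_at had 1.97, 2.12 and 3.25. None of the arrays reached 4, but replicate 3 stood 1.20 above the mean of the others, and the SD of 0.70 around a mean of 2.45 exceeded that of 99.2% of the 6632 frog probe sets of like level. Those probe sets lie near the floor with a median SD of 0.016, so a single array off the floor is enough for such a rank. Without replicate 3, the mean of aqp1.S was 2.05, at the floor, and that of aqp1.L was 11.74. The L copy was detected and the S copy was not, and this compares calls of probe sets, since the intensities of different probes do not measure the ratio of the copies.

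Aquaporin-1 is found in many cells, red cells and endothelium among them, so markers of other cells are given beside it. Of the 8 probe sets of the red cell list, 6 were highest in replicate 3, against 26.2% of all frog probe sets and 32.1% of the detected ones. By gene, each counted by its highest probe set, it was 4 of 6. In 6 probe sets replicate 3 was at least 0.5 above the mean of the other arrays, against 6.19% of detected frog probe sets. The marker lists were chosen with earlier results of these data known, so these counts are a description only. The alpha globin gene hba1.S had 2.56, 3.50 and 7.75, and the globin gene hbg1.L had 6.99, 8.02 and 10.37 on Xl2.51992.1.S1_at. The anion exchanger of red cells, slc4a1.L, had 9.64, 10.05 and 10.93, and rhag.L had 3.93, 3.79 and 5.27. Both hba1.S and rhag.L reached 4 on replicate 3 alone and count as detected only through it. For them the shares of 32.1% and 6.19% among detected probe sets are therefore not a like comparison. The probe sets that did not follow were hba3.L, near the top of the scale at 15.22, 15.23 and 15.17, and alas2.S, at 10.51, 10.08 and 10.34. The alas2.L probe set was highest in replicate 3 but lowest in replicate 2, with 8.64, 7.79 and 8.91. Only 4 of the 8 probe sets were lowest in replicate 1, as both aqp1 copies were. Averaged over the highest probe sets of its 6 measured genes, hba1.S and rhag.L included, the red cell list had 8.55, 8.81 and 10.25. Part of the higher average in replicate 3 thus comes from these genes, which count as detected only through that array. In the endothelium list, pecam1.L had 7.51, 7.29 and 7.14, and egfl7.L on Xl2.52720.1.S1_at had 12.50, 12.42 and 12.45, for an average of 10.01, 9.85 and 9.79. Of the 5 probe sets of this list, 4 were lowest in replicate 3, among them egfl7.S with 7.99, 8.40 and 7.85 and an undetected one of egfl7.L. The undetected one lay at the floor with a mean of 1.90. The share of all frog probe sets lowest in replicate 3 was not counted, so this count has no background beside it. The detected pigment cell probe sets given beside kcnj10 were, like both aqp1 copies, lowest in replicate 1 and highest in replicate 3. How many of all frog probe sets have this order was not counted. Averaged in the same way, the inner ear list of otos, otoa and gjb2 had 14.141, 14.136 and 14.082, and the cartilage list 12.717, 12.735 and 12.697. In these lists 4 of 5 and 3 of 4 probe sets were lowest in replicate 3, and several lie near the top of the scale. The part of red cells, vessels or pigment cells in the aqp1 values was not tested.

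**Figure D2:**
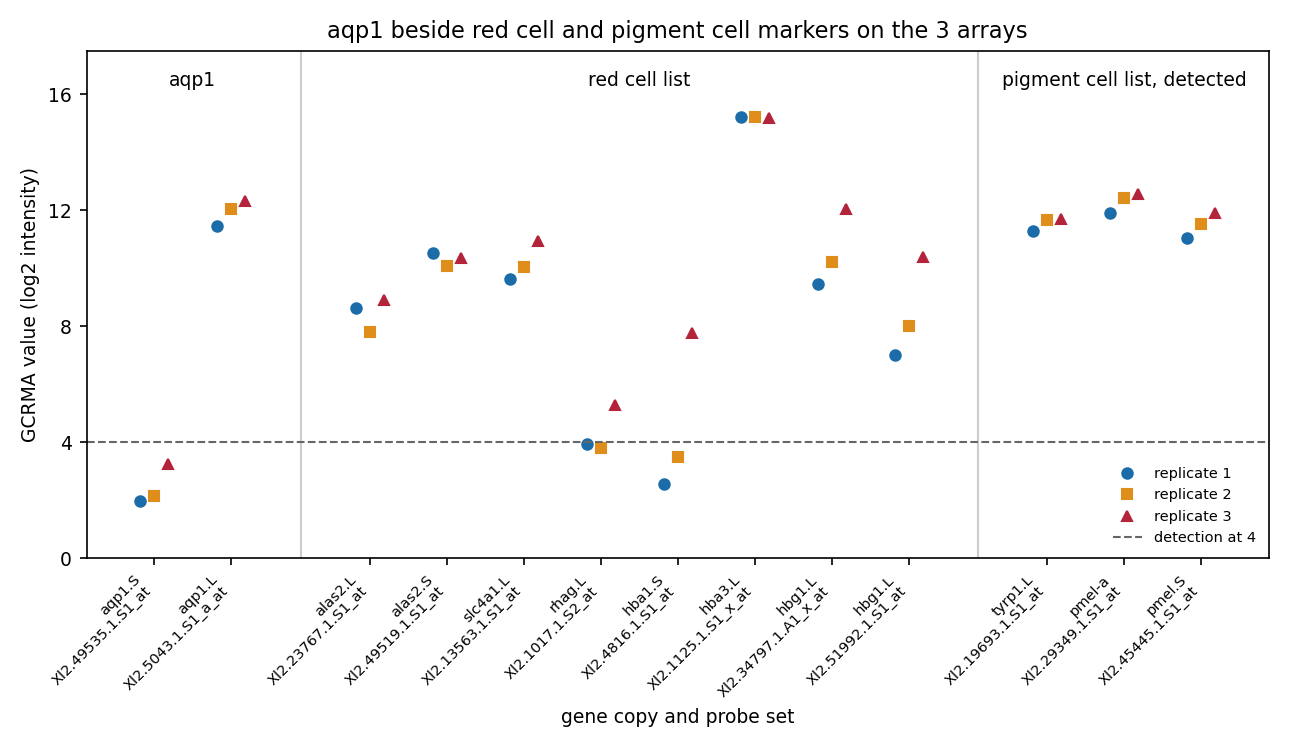
GCRMA value (log2 intensity, vertical axis) of the aqp1 probe sets, of the 8 probe sets of the red cell list and of the 3 detected probe sets of the pigment cell list (horizontal axis), with 1 point for each replicate and a dashed line at 4. Replicate 3 is the highest point for both aqp1 copies and for 6 of the 8 red cell probe sets, and replicate 1 is the lowest for both aqp1 copies and the 3 pigment cell probe sets. Not drawn are the undetected probe sets of mitf and the endothelium list, in which 4 of 5 probe sets were lowest in replicate 3.

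The 6 genes did not move as a block across the pools. Replicate 3 was the highest array for 6 of the 8 probe sets, against 26.2% of all frog probe sets and 32.1% of the detected ones, and the lowest for the 2 probe sets of kcnq1. The 6 include aqp1.S, which was not detected, so 32.1% is not a like share for it. In kcnj10 and slc4a11 replicate 3 led the next array only narrowly, with 11.20 against 11.17 and 12.53 against 12.51. The members were chosen with earlier results of these data known, so such counts are a description only. Detected probe sets in which replicate 3 stood at least 0.5 from the mean of the other arrays were those of kcnq1.L, which was lower, and aqp1.L, which was higher by 0.58. This is 2 of 6, against 11.3% of detected frog probe sets. The remaining detected members, kcne1, slc12a2, kcnj10 and slc4a11, shifted by 0.18, 0.31, 0.15 and 0.053, all upward. With 1 array for each pool and a single condition, no test of a difference between pools can be made.

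**Figure D3:**
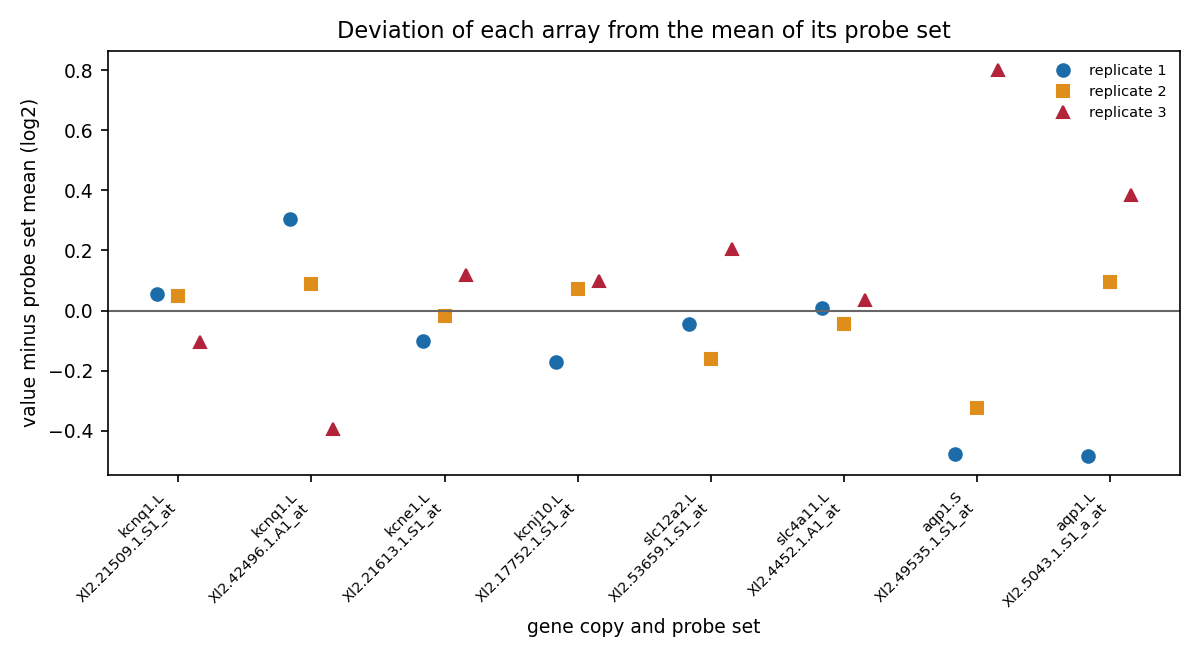
Value of each array minus the mean of its probe set (log2, vertical axis) for the 8 probe sets (horizontal axis), with 1 point for each replicate and a line at 0. Replicate 3 lies lowest for both kcnq1.L probe sets and highest for the other 6, and the widest spreads are those of aqp1.S, aqp1.L and the detected kcnq1.L probe set.

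The annotation covered the copies unevenly. Of the 8 probe sets, 7 are annotated with an L copy, and 1, that of aqp1, with an S copy, while the RefSeq gene table of assembly v10.1 lists an S copy for 5 of the 6 genes. For kcne1 that table lists the L copy only. The S copies of kcnq1, kcnj10, slc12a2 and slc4a11 were thus not analysed here, and whether their RNA binds the probes of the L copies was not tested.

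The 6 genes belong to a wider set of transport genes known from endolymph, of which 35 of 66 listed genes had a probe set with a single symbol. Of these 35 genes, 25 (71.4%) had a mean of 4 or higher in their highest probe set, and without the 6 members 19 of 29 (65.5%), both under the 79.9% of all genes. Limma's test called the same numbers of genes, 25 and 19, against 78.7% of all genes. The median of the highest means was 10.02 for the 35 genes, 9.14 without the members and 9.60 over all genes.

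Genes of potassium secretion were detected for 7 of 7 measured genes. Subunits of the sodium pump had 14.64 ± 0.12 for atp1b1.S, 14.54 ± 0.16 for atp1b2.L on Xl2.509.1.S1_at and 14.14 ± 0.037 for atp1b3.S on Xl2.6045.1.S1_s_at (SD, n = 3 each). These genes encode beta subunits, and none of the alpha subunit genes listed was analysed here. For atp1b2, as for aqp1, the probe sets of the copies differed in their calls, since that of atp1b2.S had 1.91 ± 0.0050 (SD, n = 3). Here too the probes differ, so the ratio of the copies is not measured. A further probe set of atp1b3.S, Xl2.6045.1.S2_at, had arrays on both sides of 4, with 3.70, 3.82 and 4.37. The accessory subunit gene kcne3.S, a relative of kcne1, had 5.57, 6.03 and 5.24, a mean of 5.61 ± 0.40 (SD, n = 3), and like kcnq1 was lowest in replicate 3. Both probe sets of atp1b2.L were also lowest in replicate 3, at 14.36 and 12.75. By their highest probe set, 3 of the 7 genes, kcne1, slc12a2 and atp1b3, were instead highest in replicate 3, and atp1b1.S was lowest in replicate 2. These orders have no background beside them, as the share of all frog probe sets lowest in replicate 3 was not counted.

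Of the genes for potassium buffering and exit, 3 of 4 were detected. Besides kcnj10, these were slc12a4.L, a potassium chloride cotransporter, at 12.57 ± 0.11, and kcnma1.L, the large conductance potassium channel of hair cells, at 6.92 ± 0.43 (SD, n = 3 each). The latter was highest in replicate 3, with 6.65, 6.69 and 7.42. The channel gene kcnj16.S, whose product can pair with that of kcnj10 in mammals, was at the floor with 2.01 ± 0.037 (SD, n = 3).

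Among the acid, base and chloride genes, 7 of 10 were detected, a count that includes slc4a1.L, also a marker of the red cell list. The carbonic anhydrase genes ca2 and ca12 reached 12.39 ± 0.063 and 11.82 ± 0.11 in their highest probe sets, and the proton pump subunits atp6v1a and atp6v1e1 reached 11.68 ± 0.17 and 11.81 ± 0.078 (SD, n = 3 each). The bicarbonate transporter slc4a7, a relative of slc4a11, had 8.59 ± 0.18 for its L copy and 1.92 ± 0.0071 for its S copy (SD, n = 3 each). The proton pump subunits of acid-secreting cells, atp6v1b1 and atp6v0a4, and the chloride channel gene cftr were undetected, with means of 1.88 to 2.01 over 5 probe sets.

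Sodium and calcium uptake was represented by 3 detected genes of 4. The epithelial sodium channel subunits scnn1b and scnn1g reached 11.27 ± 0.18 and 9.14 ± 0.24 in their L copies, and mcoln3.S, a cation channel, had 7.94 ± 0.15 (SD, n = 3 each). The sodium calcium exchanger gene slc8a1.S was at 1.90 ± 0.0062 (SD, n = 3). The scnn1b.S probe set was lowest in replicate 3, with 7.70, 7.67 and 6.83.

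Water channel genes other than aqp1 fell on either side of the threshold, and the whole group had 3 of 6 genes detected. The aquaglyceroporin gene aqp3.L had 12.99 ± 0.14, and aqp11.L had 10.02 ± 0.15 in the highest of its 3 probe sets (SD, n = 3 each). Another probe set of aqp11.L was at 1.84 ± 0.0054 (SD, n = 3), so aqp11, like kcnq1, had probe sets of the same copy on both sides of 4. The genes aqp2, aqp12a and mip, which encodes the lens aquaporin, were undetected, with means of 1.80 to 2.06 over 5 probe sets.

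Regulators were detected for 2 of 4 genes. The kinase gene oxsr1, whose product activates NKCC1 in mammals, had 11.94 ± 0.32 for its S copy and 11.08 ± 0.20 for its L copy, and sgk1.L, a kinase of ion transport, had 11.43 ± 0.070 (SD, n = 3 each). The kinase gene wnk1.S, which acts upstream of oxsr1, had 2.51 ± 0.019, and foxi1.L, a forkhead factor of ion-transporting cells, had 1.92 ± 0.012 (SD, n = 3 each).

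**Figure D4:**
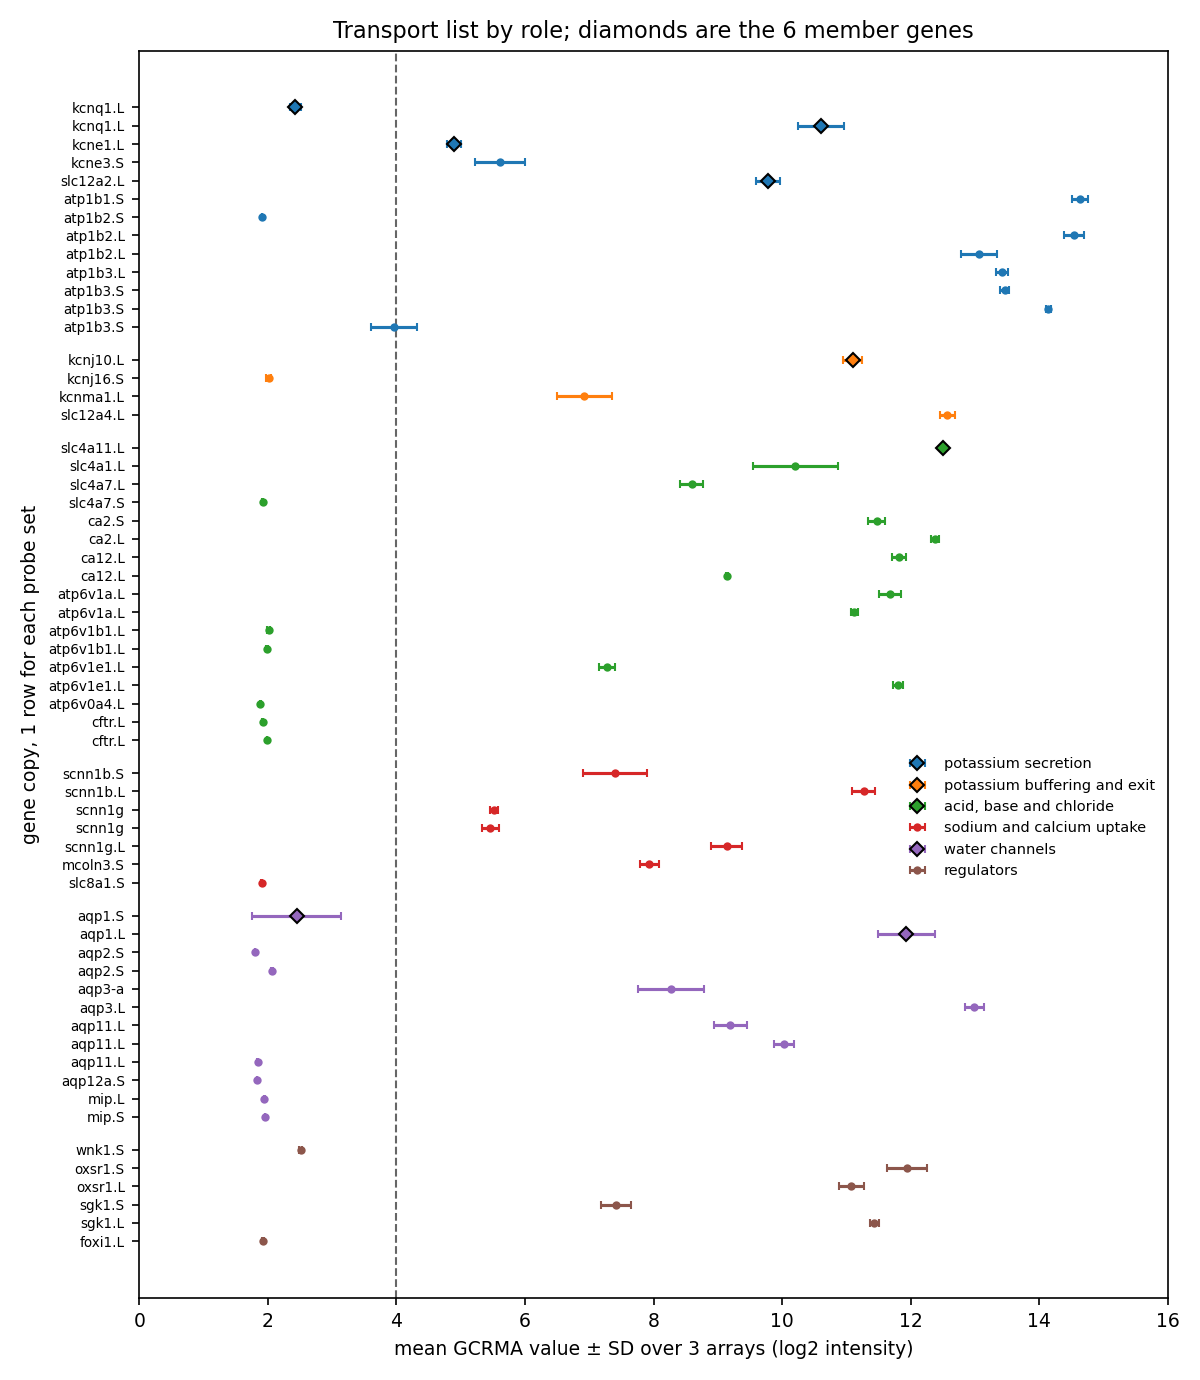
Mean GCRMA value ± SD over 3 arrays (log2 intensity, horizontal axis) of the 59 probe sets of the transport list (vertical axis, 1 row each), coloured by role, with diamonds for the 6 members and a dashed line at 4. Of the probe sets, 39 lie at 4 or higher, and most others sit near 2; atp1b3.S on Xl2.6045.1.S2_at lies on the line at 3.96.

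Across the 39 detected probe sets of this list, 8 had replicate 3 at least 0.5 from the mean of the other arrays (20.5%, against 11.3% of detected frog probe sets), 5 higher and 3 lower. Higher were aqp1.L, aqp3-a, slc4a1.L, kcnma1.L and oxsr1.S, and lower were kcnq1.L, kcne3.S and scnn1b.S. Without slc4a1.L, which is also a red cell marker, it was 7 of 38 (18.4%). The list was chosen with these data known, so this is a description of the 3 pools.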

How the data were processed

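Inner ear RNA of 3 pools of larval X. laevis was measured on the second version of the Affymetrix X. laevis array. Per the labels and the study's methods, the deposited values are on the log2 scale and were made by the authors with GCRMA, which corrects background, normalizes the arrays together and gives 1 value for each probe set. The software is not given in the sources used here. Probe sets whose name begins with Xl2 were taken as frog probe sets (32475 of 32635). Symbols came from the platform annotation, in which 15495 frog probe sets have 1 symbol, 279 several and 16701 none, and the suffixes .L, .S, -a and -b were removed. The gene IDs of 15384 of the single-symbol probe sets occur in the RefSeq gene table of assembly v10.1, whose coordinates were not used. A mean of 4 or higher was a detection, as in the study's methods. For means above 4, the moderated test of limma 3.58.1 was used in R 4.3.3 (one-sided, mean-variance trend), with p-values adjusted by Benjamini-Hochberg across the frog probe sets, after the script had been tested on simulated data. Spreads were set beside those of frog probe sets with a mean within 0.5. Counts used Python 3.11.15 with pandas 2.3.3 and numpy 2.4.6. Named were the 6 members with every probe set, and genes of a fixed transport list that have a probe set with 1 symbol. The members, the transport list and the marker lists were chosen with earlier results of these data known. Precision is limited by the number of arrays. The p-values set the distance of a mean from 4 against the spread between 3 arrays, 1 for each pool, which limma moderates across probe sets. They test no difference between the pools. RNA-Seq reads were not used here. Alternatives varied the threshold, the value taken over the arrays, the test, the normalization, the arrays used and the match of symbols.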

Additional observations from a re-analysis of the deposited data

How the results depend on the processing

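The number of detected member probe sets was 6 and that of member genes 6 under a threshold of 3, the lowest or the median of the arrays, limma's test with or without a trend, quantile normalization, a common median, each match of symbols and without each replicate in turn. At thresholds of 5 and 6, kcne1 was lost and both counts were 5. For the transport list, 25 genes were detected, with 23 at a threshold of 6, 24 at 5 and 26 when numbered copies such as slc26a4.1 were counted with the gene, an alternative added after seeing the data. Without each replicate in turn the counts remained 6, 6 and 25. Of 56 alternatives to the 8 member levels, 0 moved a probe set across 4 or changed its call, and the largest adjusted p of a detected member was 0.0125. Quantile normalization moved no member mean by more than 0.018. No paired analysis was possible because the 3 arrays form a single group. Signal near the floor of about 2 sets no lower bound on expression, so an undetected probe set does not show that its gene is silent.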

Other observations

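Relatives of the 6 genes outside the transport list were named after their values were seen. The accessory subunit gene kcne5.L, of the family of kcne1, was detected by both of its probe sets, at 7.89 ± 0.15 and 10.67 ± 0.12 (SD, n = 3 each), so the 3 kcne genes with a single symbol, kcne1, kcne3 and kcne5, were detected. Of the inward rectifier channel genes, kcnj15.L had 5.34, 5.42 and 5.94, while kcnj1.L and kcnj5.L were at the floor with 1.95 and 1.90, which with kcnj10 and kcnj16 makes 2 of 5 genes detected. The cotransporter gene slc12a8.L had 5.69, 6.99 and 5.86, highest in replicate 2, and slc12a5.L, a neuronal potassium chloride cotransporter, had a mean of 3.53 ± 0.51 (SD, n = 3) and was not detected. A further relative of slc12a2, slc12a9.L, was detected at 8.41 ± 0.53 (SD, n = 3). The bicarbonate transporter gene slc4a10.L was at 2.01. Counted with the members and listed genes, 1 of 1 kcnq, 3 of 3 kcne and 2 of 5 kcnj genes were detected. For slc12, slc4 and the aquaporins it was 4 of 5, 3 of 4 and 3 of 6. Of all genes 79.9% were detected, so these short counts are a description only.

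Pendrin, the product of SLC26A4, exchanges chloride and bicarbonate in the endolymphatic sac of mammals. It was absent from the symbol match because its frog copies carry numbers. The probe set annotated as slc26a4.3.S had 4.99, 5.38 and 4.49, a mean of 4.95 ± 0.45 (SD, n = 3; limma adjusted p = 0.0118), and was lowest in replicate 3. Those annotated as slc26a4.3.L, slc26a4.1.L and slc26a4l.L were at the floor, with 2.05, 1.97 and 1.96. The calls of the slc26a4.3 probe sets thus differed at the threshold of 4, with that of the S copy detected. As for aqp1, this compares calls of different probe sets and does not measure the ratio of the copies. The mean of slc26a4.3.S was under 5, so this call depends on the threshold, as that of kcne1 did.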
